A study of Mus musculus with 16 samples.

Results

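The response of DPP4_pos adipose progenitors to isoproterenol was described from 8 of the 16 libraries of the series, 4 from cells given PBS vehicle and 4 from cells given isoproterenol. All genes with a normalized count of at least 10 in at least 4 of the 16 libraries were compared, which left 14005 of 27179 genes in the table. The cells were PDGFRb+ stromal cells sorted by flow cytometry from inguinal white fat of C57BL/6 mice, taken as the DPP4_pos subpopulation, and grown in medium with 10% FBS and antibiotics. The labels give the treatment as 4 h with isoproterenol at 10 mM, a high concentration for cultured cells, and do not settle whether the unit is a slip. Groups of 4 DPP4_neg libraries with vehicle and 4 with isoproterenol, sorted, grown and treated in the same way, were used to ask where the response differed, and they also entered the filter and the fit that sets the error of each value. The age and number of the mice, the depot's other cells and the passage of the cultures are not given in the labels, nor whether the replicates had separate cultures or mice as their source. The p-values below therefore rest on the scatter among libraries of a group, and that scatter may be technical.

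Isoproterenol is a synthetic agonist of the beta-adrenergic receptors, through which sympathetic nerves act on fat. These receptors couple to Gs and adenylyl cyclase, and the cAMP they raise activates protein kinase A, which phosphorylates CREB at cAMP response elements and inhibits the salt-inducible kinases that hold back CREB coactivators. DPP4-positive interstitial progenitors are fibroblast-like cells of the connective tissue around fat lobules, known as a source of preadipocytes and of cytokines such as IL-33.

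The cAMP response element is the palindrome TGACGTCA. It was searched for in the RefSeq promoter windows of GRCm38.p6, which run from 250 bases before to 50 bases after a start site, and 1.79% of the 32851 windows held it. Its shorter core, TGACG on either strand, which the full site also contains, was in 20.8% of all windows. The table held a window for 10771 of the 14005 genes tested, under 80% of them, so a comparison of shares between groups of genes is void. The sequences below are the stretches around the full site in 6 genes that rose and are described in the text, shown 5′ to 3′ on the strand of the gene with the element in capitals. A match is a description of letters and not a measured binding site. The 6 genes were picked because they rose and held the element, so they do not show that risen genes hold it more often than others.
Dio2, type 2 deiodinase, chr12:90739081-90739178, minus strand: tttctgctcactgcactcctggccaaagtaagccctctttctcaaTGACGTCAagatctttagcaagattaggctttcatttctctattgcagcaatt
Has1, hyaluronan synthase, chr17:17855219-17855316, minus strand: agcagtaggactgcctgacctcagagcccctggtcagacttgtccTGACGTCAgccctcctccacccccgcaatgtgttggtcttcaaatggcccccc
Areg, amphiregulin, chr5:91139493-91139590, plus strand: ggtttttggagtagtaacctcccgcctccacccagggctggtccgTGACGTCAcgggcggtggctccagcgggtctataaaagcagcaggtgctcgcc
Errfi1, an inhibitor of the EGF receptor, chr4:150854974-150855069, plus strand: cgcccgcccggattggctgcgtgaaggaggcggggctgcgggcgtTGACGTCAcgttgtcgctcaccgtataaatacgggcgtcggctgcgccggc
Dusp1, a MAP kinase phosphatase, chr17:26508563-26508660, minus strand: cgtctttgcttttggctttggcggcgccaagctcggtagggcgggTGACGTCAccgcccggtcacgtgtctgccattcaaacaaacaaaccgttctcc
Lmcd1, a LIM-domain cofactor, chr6:112273583-112273680, plus strand: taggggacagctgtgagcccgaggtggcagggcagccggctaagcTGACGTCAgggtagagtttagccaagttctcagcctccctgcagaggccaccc
The element began 95 bases before the start site of its window in Dio2, 83 in Has1, 61 in Areg, 51 in Errfi1, 143 in Dusp1 and 130 in Lmcd1. In Has1 and Errfi1 that start site lies inside the span of the gene. Has1, on the minus strand, reaches to 17855589, and Errfi1, on the plus strand, starts at 150853796.

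Libraries were checked first. Reads in genes came to 17189166 to 20425332 in the vehicle and 9823799 to 16563940 in the isoproterenol libraries. On the first principal component of the 8 libraries, which held 89.1% of the variance, all vehicle libraries lay on one side and all isoproterenol libraries on the other. Dpp4 was at 3053 ± 186 normalized counts with vehicle (SD, n = 4), where DPP4_neg vehicle libraries had 21.1 ± 4.16. Vehicle replicate 1 stood apart from the other vehicle libraries in the summed level of 15 macrophage and leukocyte markers (1378 against 583 to 703 normalized counts) and had the highest sum of interferon-stimulated genes, so counts of these lists are also given without it. That marker sum was 671 to 1843 with isoproterenol, and of its 10 members tested 2 rose, Csf1r (0.77 ± 0.11, 0.87 without vehicle replicate 1) and Cd14 (0.98 ± 0.25, 1.03 without it), and none fell, with Ms4a1 at 0 in all 8 libraries. Summed levels were 1272 to 1332 with vehicle and 1364 to 1488 with isoproterenol for 12 endothelial markers, of which 3 of 8 tested rose and 3 fell, 120 to 174 and 124 to 190 for 9 mesothelial markers, and 3.72 to 5.07 and 2.92 to 5.62 for 9 epithelial markers. Mural markers summed to 8311 to 9432 with vehicle and 5278.5 to 6347 with isoproterenol, where 8 of 12 fell and 3 rose, with or without that library. Schwann cell markers, of which 4 of 5 tested fell and Pmp22 rose, summed to 8515 to 8926 and 9383 to 9819, and skeletal muscle markers to 259.5 to 300.2 and 105 to 146, with Myog, Pax7 and Ckm at 0. The part of these cells in the results below was not tested, and in bulk libraries fewer cells of a type and less RNA per cell cannot be told apart.

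Isoproterenol changed most measured genes of DPP4_pos cells. At an adjusted p under 0.05, 11581 of 14005 genes differed from vehicle (82.7% of those tested). Of these, 5517 rose (39.4%) and 6064 fell (43.3%), while 1607 rose at least 2-fold (11.5%) and 2688 fell at least 2-fold (19.2%). The 4 isoproterenol values lay wholly above or below the 4 vehicle values in 10900 genes (77.8%). Because so many genes passed, a gene list is read below against these shares, and counts of members changed at least 2-fold are given with it. Lists and members were chosen with earlier results of these data known. Their counts therefore describe the members named and are not tests of a pathway.

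The direction of small changes rested on the scaling. Normalized counts summed to 15.3 ± 0.107 per vehicle library and 18.5 ± 0.119 per isoproterenol library (SD, n = 4, in units of 1000000), and the groups did not overlap. Gains over all genes summed to 5.53 and losses to −2.33, in units of 1000000 normalized counts. The 10 genes with the largest gains were Gfpt2, Il1rl1, Vcan, Il33, Ugdh, Errfi1, Fstl1, Srxn1, Adgrd1 and Procr, and they held 10.8% of all gains, so the rest was spread over many genes. Among the 2801 genes highest in vehicle libraries, 1466 rose and 1027 fell, with a median log2 change of 0.13, while among the 2801 lowest 737 rose and 1197 fell, with a median of −0.36. The median log2 change of all genes tested was −0.05 as deposited and −0.33 once each library was scaled to its total, a shift of −0.27. With that scaling 3865 genes rose and 7835 fell, so the share of risen genes among the calls went from 47.6% to 33.0%. Upper quartile scaling gave a median of −0.24, 4340 risen and 7270 fallen genes, or 37.4% risen, and the library total without the 20 most abundant genes gave 3693 and 8016, or 31.5%. TMM and quantile scaling gave medians of −0.10 and −0.03. Under all 6 scalings alike, 3597 genes rose (25.7% of those tested) and 4993 fell (35.7%), and these counts are given beside each list as holding at every scaling.

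**Figure D1:**
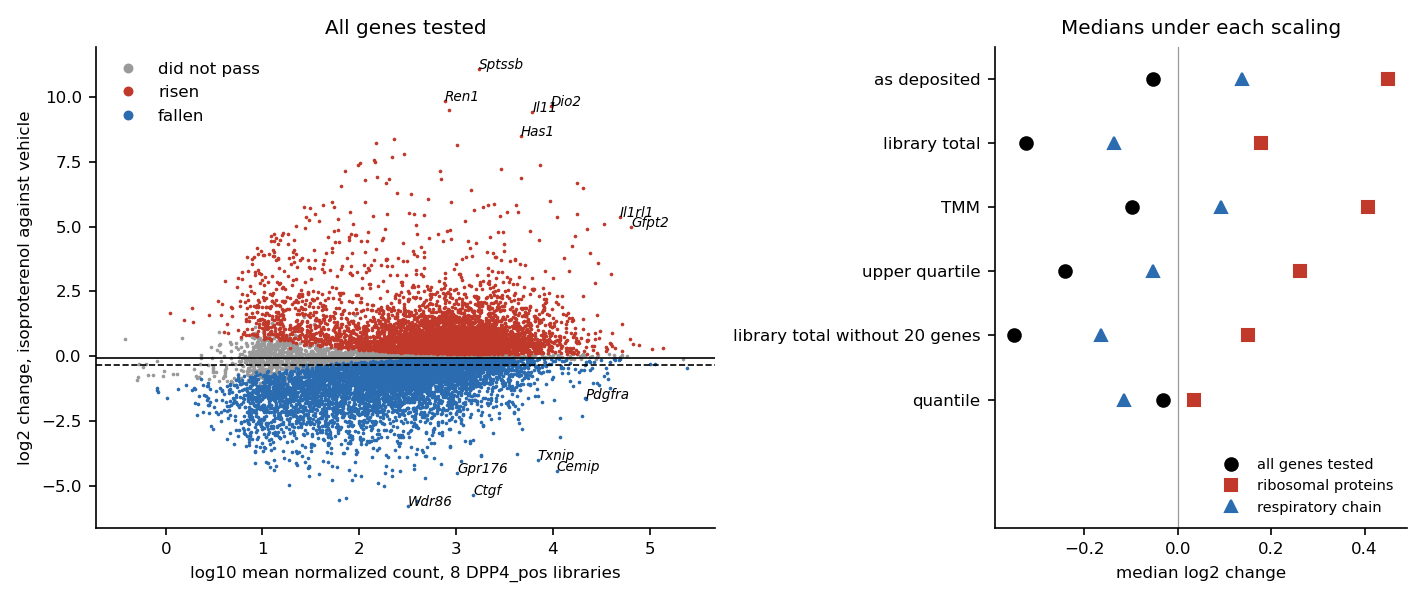
Left, log2 change of each gene tested against the log10 of its mean normalized count over 8 DPP4_pos libraries, with the median of all genes as a solid line as deposited and as a dashed line after scaling to library totals. Right, the median log2 change of all genes, 40 cytosolic ribosomal protein genes and 27 respiratory chain genes under each scaling, where the all-gene median runs from −0.35 to −0.03 and the ribosomal median stays above it.

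Adrenergic receptor genes mostly fell or did not pass the test. Adrb3, the main beta receptor of fat cells, was at 809, 767, 817 and 703 normalized counts in the vehicle libraries and at 12.4, 17.4, 19 and 13.2 in the isoproterenol libraries. The ranges were far apart, and the fall was 47.6-fold (log2 change −5.57 ± 0.13, adjusted p = 3.68e-20). Adrb1, the main beta receptor of the heart, was at 9.86, 10.4, 8.86 and 12.7 with vehicle and 6.74, 12.2, 23.4 and 15 with isoproterenol, and these ranges overlapped (0.31 ± 0.31, adjusted p = 0.348). Of the 11 genes of beta receptors and their desensitisation, 5 rose and 5 fell, all of them at every scaling (1 up and 5 down at least 2-fold), with a median of 0.31. Grk3, a kinase that desensitises receptors, fell (−2.59 ± 0.22), as did Rgs16 (−2.09 ± 0.08), while Rgs2, another regulator of G-protein signalling, rose (1.92 ± 0.09). Of 4 alpha-adrenergic receptor genes tested, 3 fell, Adra1d (−4.38 ± 0.11), Adra1a (−3.55 ± 0.41) and Adra1b (−1.63 ± 0.11), and Adra2a, which couples to Gi, rose from 3.22 to 18.7 normalized counts (2.26 ± 0.23).

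Genes of cAMP breakdown, synthesis and sensing moved both ways. Pde4d, a cAMP-specific phosphodiesterase, was at 125, 162, 136 and 135 with vehicle and at 6547, 6375, 6804 and 6885 with isoproterenol. Every treated library was far above every vehicle library, a 47.5-fold rise (5.57 ± 0.06, adjusted p = 1.04e-25). Pde4b rose 33.6-fold (5.07 ± 0.16) and Pde10a from 177 to 4299 normalized counts (4.60 ± 0.07). In contrast, Pde1b (−3.74 ± 0.20), Pde11a (−2.44 ± 0.21) and Pde2a (−1.41 ± 0.09) fell, and so did Pde4a (−0.59 ± 0.06), a paralogue of the risen pair. Over 14 phosphodiesterases tested, 8 rose and 6 fell (6 and 6 at every scaling, 5 up and 5 down at least 2-fold). Among 16 adenylyl cyclases and G proteins, 7 rose and 7 fell (4 and 5 at every scaling, 1 up and 1 down at least 2-fold, median 0.10), with Adcy2 up (2.30 ± 0.10) and Adcy7 down (−1.33 ± 0.13). Genes of protein kinase A, EPAC and their anchors fell in 8 of 12 and rose in 4 (8 and 3 at every scaling, 1 up and 4 down at least 2-fold, median −0.53). The fallen ones included the regulatory subunit Prkar2b (−2.19 ± 0.05), the kinase inhibitors Pkia (−2.16 ± 0.13) and Pkig (−1.91 ± 0.07) and the EPAC gene Rapgef3 (−1.80 ± 0.21). The anchor Akap13 rose (1.29 ± 0.06).

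Most immediate early transcription factor genes rose at least 2-fold, as did some CREB factor genes. Crem, whose inducible form represses CREB targets, was at 126, 126, 125 and 135 normalized counts with vehicle and at 5345, 5495, 5701 and 5587 with isoproterenol, 42.9-fold higher (5.42 ± 0.06, adjusted p = 1.04e-25). Nr4a1, an orphan nuclear receptor induced within minutes of cAMP in many cells, was at 99.5, 72.1, 56.7 and 90.4 and 9236, 9028, 9620.2 and 9489.6. Its lowest treated library was far above its highest vehicle library (118-fold, 6.89 ± 0.11). Its relatives Nr4a2 and Nr4a3 rose 23.6-fold and 143-fold. Sik1, a salt-inducible kinase that is itself a CREB target, went from 284 ± 13.3 to 4482 ± 208 normalized counts (SD, n = 4). Of 13 CREB factors, coactivators and salt-inducible kinases 10 rose and 1 fell (7 and 1 at every scaling, 3 up and 0 down at least 2-fold, median 0.42), the fallen one being Creb3l1 (−0.84 ± 0.05). Of 25 immediate early transcription factors 18 rose, 17 of them at least 2-fold, and 5 fell, all at every scaling, with a median of 1.46. Fos rose 5.73-fold (2.52 ± 0.09), Fosl1 rose by 4.22 ± 0.09, Cebpb by 2.22 ± 0.03 and Ier3 by 4.78 ± 0.06 on the log2 scale. The fallen ones were Klf10 (−1.28 ± 0.07), Cebpd (−0.79 ± 0.05), Jun (−0.79 ± 0.05), Klf4 (−0.63 ± 0.05) and Jund (−0.22 ± 0.05). Feedback inhibitors of ERK and MAP kinases rose in 11 of 14 and fell in 1 (the same numbers at every scaling, 10 up and 1 down at least 2-fold, median 1.10). The phosphatases Dusp14 (3.76 ± 0.15), Dusp10 (2.42 ± 0.07), Dusp5 (1.80 ± 0.18), Dusp16 (1.67 ± 0.06) and Dusp1 (1.32 ± 0.07) rose, and Spry1 fell (−1.15 ± 0.08).

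**Figure D2:**
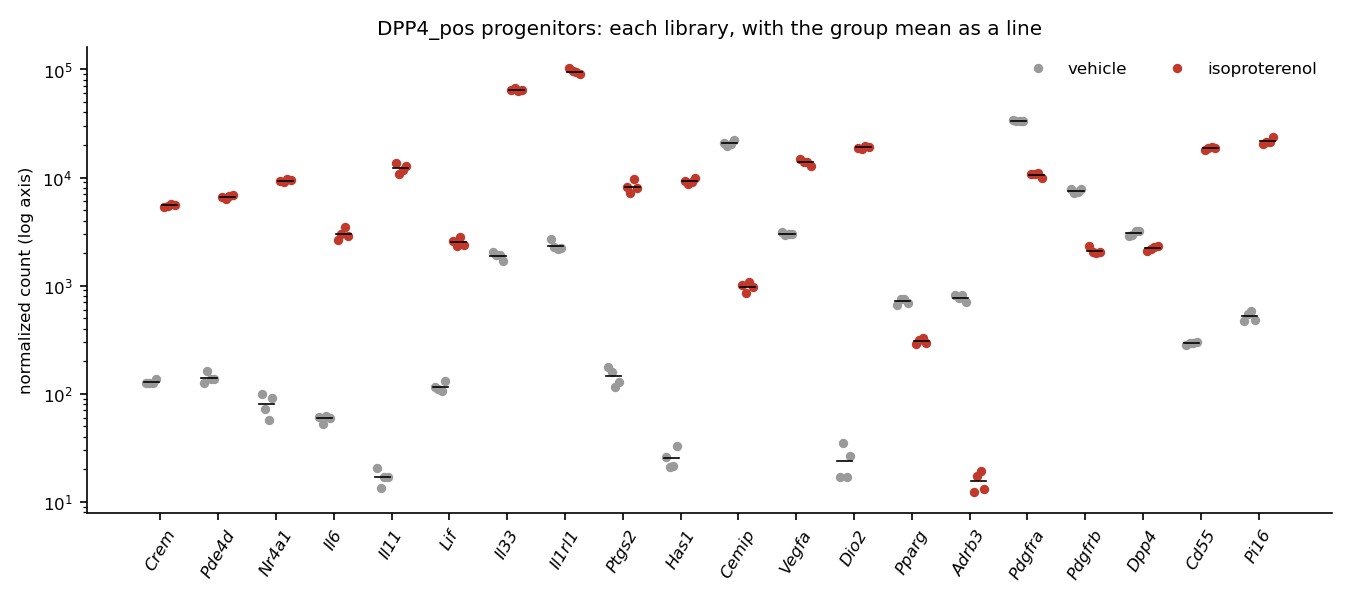
Normalized count on a log axis in each of the 8 DPP4_pos libraries for 20 genes of the text, vehicle in grey and isoproterenol in red, with the group mean as a line. The 2 groups do not overlap in any of the 20, from Adrb3, which fell 47.6-fold, to Dio2, which rose 802-fold.

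Most ligands of the IL-6 family rose. Il11, which signals through gp130, was at 20.6, 13.4, 16.8 and 16.9 normalized counts with vehicle and at 13623, 10826, 11844 and 12816 with isoproterenol. This was a 689-fold rise (9.43 ± 0.11, adjusted p = 3.05e-25), the largest in the list. Il6 itself, on chromosome 5 from 30013114 to 30019975 in GRCm38.p6, was at 60.9, 52.8, 62 and 60 and 2667, 2989.7, 3494 and 2896. The groups were 50.1-fold apart (5.65 ± 0.09). Lif rose 21.7-fold (4.44 ± 0.06), Clcf1 rose by 3.15 ± 0.08, and Socs3, the feedback inhibitor of gp130 signalling, rose 5.8-fold (2.54 ± 0.05). Of 17 genes of this family and its feedback 12 rose, 9 at least 2-fold, and 4 fell, all at every scaling, with a median of 1.35. The fallen ones were the ligand Ctf1 (−3.08 ± 0.41) and the receptor chains Lifr (−0.96 ± 0.07), Il6ra (−0.91 ± 0.08) and Il11ra1 (−0.39 ± 0.08).

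The alarmin Il33 and the gene of its receptor both rose in the same bulk libraries, which do not show whether single cells made both. Il33, on chromosome 19 from 29925113 to 29960718, was at 2031, 1928, 1909.5 and 1704 normalized counts with vehicle and 64649, 66813, 63311 and 65095 with isoproterenol. Il1rl1, which encodes the IL-33 receptor ST2 in a membrane and a secreted decoy form, was at 2682, 2250.2, 2165 and 2213 and 102850, 95830, 94131 and 90023. Vehicle replicate 1 was the highest vehicle library for Il1rl1, and all treated libraries were far above it. The rises were 34.4-fold for Il33 (5.10 ± 0.05) and 41.2-fold for Il1rl1 (5.36 ± 0.18), and counts per gene do not separate the forms of Il1rl1. Il1rap, the co-receptor that ST2 shares with other IL-1 receptors, fell from 3019.6 to 618 (−2.29 ± 0.04), and the antagonist Il1rn fell as well (−2.21 ± 0.11). Il1r1 rose (1.45 ± 0.04). Of 8 IL-1 family genes tested 4 rose and 3 fell (4 and 2 at every scaling, 3 up and 2 down at least 2-fold, median 0.28), the weakest fall being that of Il18 (−0.45 ± 0.18), which did not pass without vehicle replicate 2 (adjusted p = 0.0769) and had no such fall under quantile scaling.

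Among chemokines, those of the CXC group that attract neutrophils rose furthest. Cxcl2 had 2 reads in the vehicle libraries together and 1204 in the isoproterenol libraries, where single libraries were at 345, 449.5, 604 and 425 normalized counts. The ratio, corrected for library depth as all read ratios here, was 1072 (95% counting interval 296 to 8864). Cxcl1 (5.84 ± 0.11) and Cxcl5 (3.77 ± 0.12) rose too, as did Cxcl14 (3.71 ± 0.06) and the scavenging receptor Ackr3 (3.13 ± 0.08). Ccl2, which recruits monocytes, was at 992, 709, 708 and 760.4 with vehicle and 1324, 1397, 1609 and 1323 with isoproterenol. Vehicle replicate 1 was its highest vehicle library, below all treated ones, and the rise was 1.79-fold (0.84 ± 0.10). Cxcl12, the retention factor for leukocytes and stem cells, fell (−0.87 ± 0.06), with Cxcl16 (−1.29 ± 0.06) and Cxcl9 (−1.10 ± 0.34, −0.89 without vehicle replicate 1). In all, 11 of 17 chemokine genes rose and 3 fell (9 and 2 at every scaling, 8 up and 2 down at least 2-fold, median 0.84). NF-kB pathway genes and targets rose in 14 of 22 and fell in 2 (10 and 2 at every scaling, 6 up and 0 down at least 2-fold, median 0.37). Csf3, the granulocyte growth factor G-CSF, had 5 reads with vehicle and 273 with isoproterenol (ratio 97.2, 41.2 to 302), Sod2 rose by 2.56 ± 0.04 and Nfkbiz by 1.76 ± 0.06, while Tnip1 (−0.64 ± 0.05) and Csf1 (−0.12 ± 0.04) fell. Saa3, an acute-phase gene of this list, was at 4337 and 3983 and did not pass (−0.12 ± 0.11, adjusted p = 0.277).

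Among prostaglandin genes the inducible synthetic enzyme rose and the degrading enzyme fell. Ptgs2, cyclooxygenase-2, was at 177, 158, 116 and 129 normalized counts with vehicle and 8123, 7143, 9614 and 7951 with isoproterenol, 56.6-fold higher and without overlap (5.82 ± 0.13). Pla2g4a, the phospholipase that frees arachidonate, rose (2.27 ± 0.07), and so did the prostaglandin carrier Slco2a1 (2.58 ± 0.06) and the PGF receptor gene Ptgfr (3.84 ± 0.07). The degrading enzyme Hpgd fell from 442 to 45.7 (−3.29 ± 0.23), and the receptor gene Ptger4 (−1.77 ± 0.16), the constitutive cyclooxygenase gene Ptgs1 (−0.60 ± 0.10), Ptger1 (−0.41 ± 0.07) and the synthase gene Ptges (−0.22 ± 0.04) fell too. Over 15 genes 9 rose and 5 fell (7 and 5 at every scaling, 6 up and 2 down at least 2-fold, median 0.29).

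Most genes of hyaluronan synthesis and turnover rose. Has1, on chromosome 17 from 17833691 to 17855589, whose promoter stretch is printed above, was at 26, 20.8, 21.3 and 32.9 normalized counts with vehicle and at 9348, 8690.3, 9172 and 9907 with isoproterenol. This was a 359-fold rise (8.49 ± 0.21, adjusted p = 9.53e-20). Cemip, which is needed for hyaluronan breakdown in fibroblasts, was at 21040, 19644, 20408 and 22455 and 1017, 848, 1083 and 964. It fell 21.4-fold (−4.42 ± 0.06), with no overlap. Tnfaip6, which cross-links hyaluronan, rose by 6.69 ± 0.06 and the proteoglycan gene Vcan by 3.17 ± 0.06, and the hyaluronidase gene Hyal1 fell (−2.02 ± 0.17). Of 12 genes 8 rose and 2 fell (7 and 2 at every scaling, 6 up and 2 down at least 2-fold, median 1.09). Of the enzymes that supply UDP-sugars, Gfpt2, which starts the hexosamine pathway, was at 3983, 3928, 3921 and 3841 and 123570, 120610, 125360 and 127820, a 31.7-fold rise. Uap1, which makes UDP-N-acetylglucosamine, rose 24.8-fold and Ugdh, which makes UDP-glucuronate, 12.1-fold, both without overlap.

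Collagen and other fibrillar matrix genes were mostly lower. Of 24 tested, 19 fell, all at every scaling, but only 4 at least 2-fold, and 3 rose (2 at every scaling), with a median of −0.38 against −0.05 for all genes. Elastin fell most (Eln, −1.66 ± 0.09), followed by Col8a1 (−1.29 ± 0.04), Col6a3 (−1.17 ± 0.04) and Col15a1 (−1.13 ± 0.04). The basement membrane genes Col4a1 (0.88 ± 0.03) and Col4a2 (0.59 ± 0.03) rose. Sparc rose as deposited (0.21 ± 0.04), with a change that turned negative when libraries were scaled to their totals. Matrix proteases and inhibitors rose in 13 of 22 and fell in 8 (8 and 8 at every scaling, 6 up and 4 down at least 2-fold, median 0.22). Within the ADAMTS family Adamts4 (4.48 ± 0.05) and Adamts9 (3.84 ± 0.04) rose, and Adamts5 (−3.10 ± 0.05) and Adamts15 (−2.96 ± 0.06), which like Adamts4 cut aggrecan and versican, fell. The stromelysin relative Mmp11 fell (−2.67 ± 0.06), and so did Timp3 (−0.75 ± 0.07), Mmp23 (−0.46 ± 0.05), Adamts1 (−0.32 ± 0.04) and Timp2 (−0.19 ± 0.03).

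Both PDGF receptors fell. Pdgfra, on chromosome 5 from 75151322 to 75198206, was at 33859, 33346, 33371 and 33607 normalized counts with vehicle and 10883, 10760, 10922 and 9989 with isoproterenol, 3.15-fold lower (−1.66 ± 0.04, adjusted p = 5.08e-20). Pdgfrb, the receptor whose protein was used to sort the cells, was at 7881, 7142, 7367 and 7859 and 2347, 2042, 1988 and 2044, 3.6-fold lower (−1.85 ± 0.05). No treated library reached the lowest vehicle library for either gene. The ligand genes Pdgfc (1.78 ± 0.09) and Pdgfa (0.70 ± 0.12) rose, and Pdgfd (−1.09 ± 0.06) and the receptor-like gene Pdgfrl (−1.10 ± 0.08) fell. The list of 7 thus held 2 risen and 4 fallen genes at every scaling (1 up and 4 down at least 2-fold), with a median of −1.09. Of 10 stromal identity genes 6 fell and 2 rose (6 and 1 at every scaling, 1 up and 3 down at least 2-fold, median −0.33), with Cspg4 (−2.20 ± 0.19) and Eng (−0.75 ± 0.06) down, the glycoprotein gene Pdpn up (3.03 ± 0.06), and Ly6a (0.01 ± 0.08) and Dcn (0.01 ± 0.07) not passing. Itgb1 rose as deposited (0.08 ± 0.03) with a change that turned negative under 4 of the other scalings.

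Other growth factor genes moved both ways. Epidermal growth factor ligands were low with vehicle and rose, Ereg from 40.1 to 309 normalized counts (2.91 ± 0.15), Hbegf (2.10 ± 0.14) and Btc (1.10 ± 0.24). Areg, with an element in its promoter stretch, had 1 read in the vehicle libraries together and 167 in the isoproterenol libraries, a ratio of 297 (95% counting interval 52.7 to 11818). Errfi1, which inhibits the EGF receptor, was at 3032, 2729.6, 2762 and 2834 and 45455, 45234, 46588 and 44483, 16-fold higher. Nrg1 fell (−0.83 ± 0.17), and Erbb2 (−0.13 ± 0.06) fell as deposited but missed the threshold in 9 of the alternative analyses. In the EGF family 6 of 9 rose and 2 fell (5 and 1 at every scaling, 5 up and 0 down at least 2-fold, median 1.10). Vegfa, the main angiogenic factor of fat, was at 3109.9, 2967, 2992 and 2998 with vehicle and 14977, 13790, 13854 and 12846 with isoproterenol, 4.59-fold higher, whereas the lymphatic factor Vegfd fell (−2.39 ± 0.05). Fgf2 (2.01 ± 0.10), Fgf7 (1.37 ± 0.03) and Fgf18 (1.24 ± 0.07) rose and Bdnf fell (−1.86 ± 0.20). Over 22 such genes 9 rose and 11 fell (9 and 10 at every scaling, 5 up and 9 down at least 2-fold, median −0.32).

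Genes of the TGF-beta superfamily moved both ways. Inhba, the activin A subunit, rose from 339.6 to 4814 normalized counts (3.82 ± 0.10), the pseudoreceptor Bambi by 3.11 ± 0.10 and the receptor gene Tgfbr1 by 2.59 ± 0.05. Tgfb3 fell (−1.96 ± 0.05), with Smad6 (−0.87 ± 0.05), Grem1 (−0.75 ± 0.16), Id3 (−0.70 ± 0.04) and Id1 (−0.27 ± 0.08). The list of 22 held 12 risen and 6 fallen genes (9 and 5 at every scaling, 6 up and 2 down at least 2-fold, median 0.32). Wnt genes fell in 9 of 16 and rose in 5 (9 and 4 at every scaling, 3 up and 6 down at least 2-fold, median −0.68). Wnt9a (−2.71 ± 0.22), the Wnt target Nkd1 (−2.56 ± 0.09) and Wnt5a (−1.93 ± 0.08) fell, while Wnt11 (2.50 ± 0.10), Wnt5b (2.28 ± 0.15), Rspo1 (1.39 ± 0.20) and Wnt2 (0.95 ± 0.13) rose. Sfrp4 rose as deposited (0.29 ± 0.08) and turned slightly negative with the library total without 20 genes.

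Markers of interstitial progenitors did not move as a block. Dpp4 was at 2853, 2937, 3227 and 3194 normalized counts with vehicle and 2104, 2186, 2274 and 2326 with isoproterenol, 1.37-fold lower (−0.46 ± 0.13, adjusted p = 0.00257), and the groups were close but did not overlap. In contrast Cd55, a complement regulator used to sort the same progenitors, was at 282, 291, 292 and 299.9 and 18040, 18846, 18971 and 18622, a 63.7-fold rise. Pi16, a peptidase inhibitor of the same cells, was at 468, 544, 581 and 477 and 20292, 21497, 21308 and 23946, 42.1-fold higher. Over 26 markers 13 rose, 9 at least 2-fold, and 9 fell, 3 at least 2-fold (12 and 9 at every scaling), with a median of 0.19. Cd34 (−0.55 ± 0.11), Clec3b (−0.44 ± 0.10), Mfap5 (−0.52 ± 0.05), Pcolce2 (−0.37 ± 0.05), Anxa3 (−0.21 ± 0.04), Smpd3 (−1.96 ± 0.15), Limch1 (−1.45 ± 0.13) and Tek (−1.30 ± 0.11) fell. Of 22 markers of committed preadipocytes and CD142+ cells 13 fell, 7 at least 2-fold, and 5 rose (12 and 4 at every scaling, median −0.26). F3, the CD142 gene, fell from 3244 to 935 (−1.79 ± 0.05), with Aoc3 (−1.96 ± 0.04) and Steap4 (−1.62 ± 0.06), and the heparan sulfate proteoglycan gene Sdc1 rose (1.80 ± 0.05). Icam1, also on this list, rose by a small step as deposited (0.12 ± 0.05) with a change that turned negative under 4 other scalings.

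Adipocyte genes were mostly lower after 4 h. Pparg, the master regulator of fat cell formation, was at 662, 746, 757 and 695 normalized counts with vehicle and at 288, 310.1, 327 and 295 with isoproterenol, 2.34-fold lower (−1.23 ± 0.05). Fabp4, a fatty acid binding protein that PPARg controls, was at 6118, 6993, 6967 and 6117 and 2428, 2781, 3000.2 and 2516, 2.45-fold lower (−1.29 ± 0.08). All treated libraries were below all vehicle libraries for both genes. Of 27 adipogenic and adipocyte genes 22 fell, 13 at least 2-fold, and 4 rose (21 and 4 at every scaling), with a median of −1.03. The lipid droplet genes Plin4 (−2.82 ± 0.07), Plin1 (−2.59 ± 0.07) and Cidec (−2.21 ± 0.19), the glucose transporter Slc2a4 (−2.13 ± 0.30) and adipsin (Cfd, −2.20 ± 0.07) fell most. The risen ones were Dgat1, the final enzyme of triglyceride synthesis (3.71 ± 0.05), Cebpb (2.22 ± 0.03), Scd1 (0.89 ± 0.06) and Fasn (0.62 ± 0.04). Mature adipocyte markers, among them Plin1 and Adrb3, summed to 11544 to 13151 normalized counts with vehicle and 2585 to 2962 with isoproterenol, and all 8 tested fell (7 at every scaling).

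Genes of lipolysis, the breakdown of stored fat that beta-adrenergic signals start in fat cells, fell in 8 of 11 and rose in 3, all at every scaling (2 up and 6 down at least 2-fold), with a median of −1.14. The glycerol channel Aqp7 (−3.09 ± 0.20) and Plin3 (−1.95 ± 0.04) fell, and Abhd5, the activator of adipose triglyceride lipase (2.25 ± 0.04), Gk (1.59 ± 0.07) and Mgll (0.50 ± 0.05) rose. Thermogenic genes rose in 8 of 20 and fell in 7 (8 and 6 at every scaling, 5 up and 4 down at least 2-fold, median 0.05). Dio2, which activates thyroid hormone within brown fat cells and whose promoter stretch is printed above, was at 17, 34.9, 16.8 and 26.2 normalized counts with vehicle and at 18587, 18419, 19734 and 19261 with isoproterenol, on chromosome 12 from 90724552 to 90739038. The rise was 802-fold (9.65 ± 0.16, adjusted p = 1.62e-22). Ucp1, the uncoupling protein of thermogenic fat cells, had 5 reads in the vehicle libraries together and 202 in the isoproterenol libraries, at 69.7, 66.2, 87.7 and 78.9 normalized counts per library. The ratio was 72 (95% counting interval 30.3 to 224). Ucp1 was below the filter in all vehicle libraries and met it through isoproterenol libraries alone. Its lack of overlap between the groups is therefore no added support. Ppargc1a, the coactivator of mitochondrial genes, was at 31.4, 40.9, 44.3 and 40.6 and 47.2, 47, 45.3 and 41.3, overlapping ranges that did not pass the test (0.21 ± 0.13, adjusted p = 0.145). Ppargc1b (−1.08 ± 0.25), Kcnk3 (−1.56 ± 0.46), Irf4 (−1.45 ± 0.07), Prdm16 (−0.74 ± 0.11), Slc25a20 (−0.57 ± 0.05) and Ckb (−0.49 ± 0.05) fell, and Cox8b (−1.10 ± 0.45), near 0 throughout, fell as deposited but missed the threshold in 9 of the alternative analyses.

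**Figure D3:**
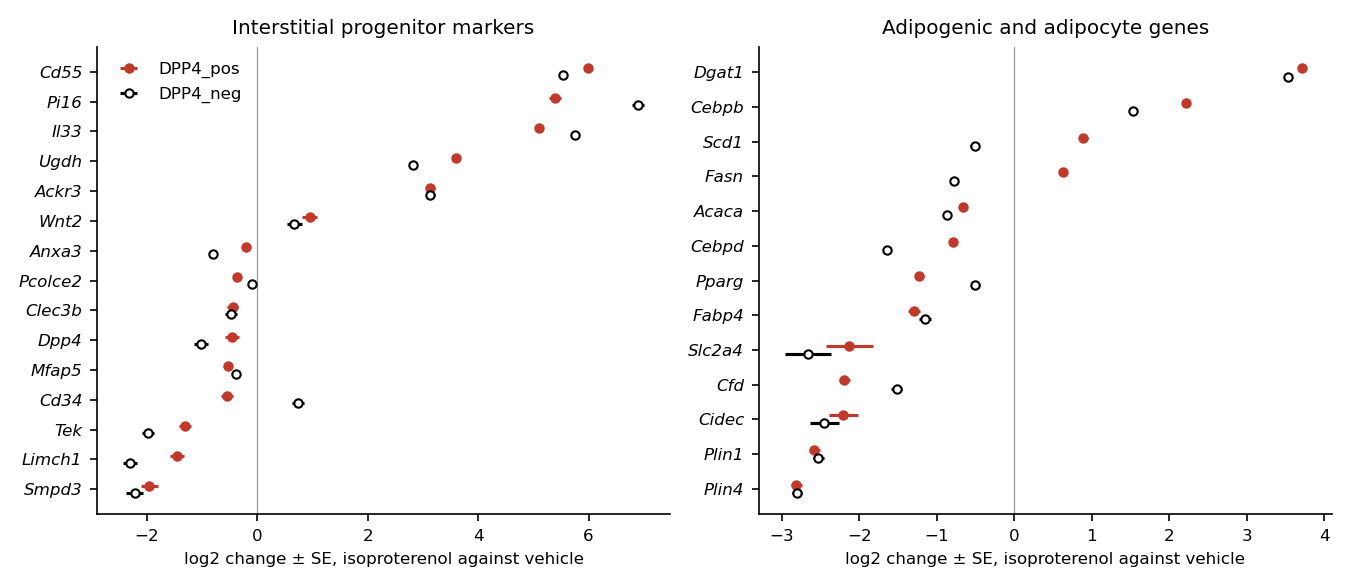
Log2 change with isoproterenol ± SE for named interstitial progenitor markers (left) and adipogenic and adipocyte genes (right), in DPP4_pos cells (filled) and DPP4_neg cells (open), from the fit of all 16 libraries. Cd55, Pi16 and Il33 lie above 5 in DPP4_pos cells while Dpp4 lies at −0.46, and most adipocyte genes lie below 0 in both populations.

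Cytoskeletal genes under control of YAP and SRF were mostly lower. Ctgf, a connective tissue growth factor and standard YAP target, was at 3261, 2714, 2818 and 2899.5 normalized counts with vehicle and 64, 94.1, 65.8 and 58.3 with isoproterenol, 41.5-fold lower and without overlap (−5.37 ± 0.10). Of 26 such genes 21 fell, all at every scaling, 9 of them at least 2-fold, and 5 rose (3 at every scaling), with a median of −0.62. Ankrd1 (−3.37 ± 0.27), Fhl2 (8.01-fold), vinculin (Vcl, −2.15 ± 0.04) and Cnn2 (−1.94 ± 0.06) fell. Tead1, the DNA-binding partner of YAP (1.54 ± 0.04), Tagln2 (0.89 ± 0.05) and filamin A (Flna, 0.41 ± 0.04) rose, and Srf (0.14 ± 0.05) and Amotl1 (0.23 ± 0.04) rose as deposited but not when libraries were scaled to their totals. Mural markers, which share the contractile genes Acta2, Actg2 and Cnn1 with this list, fell in 8 of 12, and their part in this result was not tested.

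Interferon-stimulated genes were lower. Oas2, an antiviral oligoadenylate synthetase, was at 1684, 526, 1047 and 903 normalized counts with vehicle and at 111, 138, 246 and 103 with isoproterenol, and the groups did not overlap (−2.76 ± 0.48). Ifit1, an antiviral RNA-binding protein, was at 3847, 853, 1631 and 1298 with vehicle and at most at 739 with isoproterenol. Vehicle replicate 1 was the highest of the vehicle libraries for both, yet the other 3 also lay above the treated ones (−2.43 ± 0.44). Without it the changes were −2.49 for Oas2 and −2.01 for Ifit1. Of 25 genes 21 fell, 18 at least 2-fold, and 3 rose (20 and 1 at every scaling), with a median of −1.60, and 19 fell without vehicle replicate 1, 15 of them at least 2-fold, while 3 rose. Summed levels were 45529 normalized counts in vehicle replicate 1, 18382 to 30484 in the other vehicle libraries and 16079 to 24567 with isoproterenol, so the sums overlapped, as did single genes for 9 of the 25. Oasl1 (0.94 ± 0.34) and Trim25 (0.44 ± 0.11) were among the risen, and both lost the call under several alternatives. Oas3 (−2.85 ± 0.68), Oasl2 (−2.24 ± 0.45) and Rtp4 (−2.22 ± 0.50) were among the larger falls. The macrophage and leukocyte sum was highest among the vehicle libraries in the same replicate 1, and its part in these values was not tested beyond leaving that library out.

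Glucose and redox genes were mostly higher. HIF targets and glycolysis genes rose in 21 of 26, 12 at least 2-fold, and fell in 5 (18 and 5 at every scaling, median 0.88). Hexokinase 2 (Hk2) went from 295 to 5945 normalized counts (4.33 ± 0.06), the lactate exporter Slc16a3 rose by 3.86 ± 0.07, the prolyl hydroxylase Egln3 by 5.47 ± 0.13 and Ddit4, an inhibitor of mTORC1, by 4.07 ± 0.07. Adm, a vasodilator peptide and HIF target, went the other way, from 8283, 7525, 7909.8 and 8077 to 558, 609.8, 699 and 485 (13.6-fold lower), and Pfkfb4 (−0.77 ± 0.10), Bnip3l (−0.55 ± 0.04), Hk1 (−0.41 ± 0.04) and Bnip3 (−0.19 ± 0.06) fell as well. NRF2 targets, which handle oxidants, rose in 19 of 21, 12 at least 2-fold, and fell in 1, Me1 (−0.14 ± 0.04), with 15 and 1 at every scaling and a median of 1.45. Slc7a11, the cystine importer, was at 94.1, 76.5, 86.8 and 83.6 and 14118, 14649, 16544 and 13120. Each treated library was more than 100-fold above each vehicle library (7.40 ± 0.07, adjusted p = 1.78e-26). Sulfiredoxin (Srxn1, 30.2-fold), thioredoxin reductase (Txnrd1, 9.84-fold), Gclc (3.06 ± 0.06) and Gsta4 (2.37 ± 0.12) rose, and Txnip, which binds thioredoxin, fell 15.9-fold.

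Stress-response lists were mostly higher. Genes of ATF4 and the integrated stress response rose in 17 of 22, 12 at least 2-fold, and fell in 5 (15 and 4 at every scaling, median 1.17). Slc3a2 (2.32 ± 0.04), Mthfd2 (2.19 ± 0.06), Nupr1 (2.01 ± 0.09) and Slc7a1 (4-fold) rose, whereas Ddit3, the death-linked factor CHOP (−0.56 ± 0.08), Cebpg (−0.70 ± 0.05), Pck2 (−0.52 ± 0.05), Vldlr (−0.34 ± 0.06) and Chac1 (−0.34 ± 0.14) fell. The call of Chac1 was lost in 8 alternative analyses and its sign turned under quantile scaling. Endoplasmic reticulum chaperones and unfolded protein genes rose in 17 of 20 and fell in 1 (13 and 1 at every scaling, 7 up and 0 down at least 2-fold, median 0.65), with Hspa5, the chaperone BiP, at 1.57 ± 0.04 and Sdf2l1 at 1.73 ± 0.08, and Herpud1 was the fallen one (−0.39 ± 0.04). Heat shock genes rose in 14 of 18, 8 at least 2-fold, and fell in 3 (12 and 2 at every scaling, median 0.93). Hsph1, an HSP110 chaperone, rose 13.9-fold and Bag3 by 2.39 ± 0.05, and Cryab (−0.69 ± 0.05), Hspa4l (−0.42 ± 0.11) and Hspb1 (−0.36 ± 0.07) fell. Metallothionein and zinc transport genes rose in 8 of 9 and fell in 1 (7 and 1 at every scaling, 4 up and 0 down at least 2-fold, median 0.98), with the metal-binding Mt2 at 3.30 ± 0.07 and Mt1 at 2.69 ± 0.05, and the zinc importer Slc39a1 was the fallen one (−0.61 ± 0.04).

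Genes for making ribosomes rose without exception among those tested. Of 20 ribosome biogenesis genes and Myc targets all rose, 19 at least 2-fold, and all 20 did so at every scaling, with a median of 1.80. Myc went from 615, 583, 645 and 644 to 2182, 2192, 2302 and 2229 normalized counts (1.84 ± 0.04). Odc1, the first enzyme of polyamine synthesis and a Myc target, went from 538, 521, 500.4 and 483 to 4753, 4894, 5305 and 4540 (3.25 ± 0.05), and the nucleolar genes Nop56 (2.23 ± 0.05), Rrp12 (2.24 ± 0.06), Gnl3 (2.09 ± 0.05) and Nop2 (2.03 ± 0.05) were also risen, in each case without overlap. All 40 cytosolic ribosomal protein genes rose as deposited, none of them 2-fold, with a median of 0.45. Only 14 did so at every scaling. The median was 0.18 when libraries were scaled to their totals and 0.03 under quantile scaling. Respiratory chain genes rose in 13 of 27 and fell in 4 as deposited (1 and 4 at every scaling, 0 up and 0 down at least 2-fold, median 0.14), so no direction is given for them.

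Cell cycle genes were mostly lower. The growth-arrest gene Gas1 was among the fallen ones, so no direction of proliferation is read from these lists. S and G2/M genes fell in 21 of 29, 5 at least 2-fold, and rose in 6 (20 and 2 at every scaling, median −0.39). Ccnb2 (−1.54 ± 0.07), E2f1 (−1.27 ± 0.08), Rrm1 (−1.07 ± 0.04) and Ccne2 (−1.03 ± 0.14) fell. Pcna (1.31 ± 0.04) and Rrm2 (0.64 ± 0.04) rose, and Top2a (0.14 ± 0.05), Ccnb1 (0.16 ± 0.05), Tyms (0.19 ± 0.06) and Aurka (0.21 ± 0.06) rose as deposited, with changes that turned negative when libraries were scaled to their totals. G1 cyclins and regulators fell in 10 of 15 and rose in 5 (9 and 3 at every scaling, 2 up and 6 down at least 2-fold, median −0.77). Gas1, a growth-arrest gene, fell from 8272 to 2706 normalized counts (−1.61 ± 0.05), as did Cdk6 (−1.87 ± 0.32) and Cdkn2b (−1.32 ± 0.11). Ccnd2 rose (1.28 ± 0.04), with Cdkn1a (0.49 ± 0.04), and Ccnd3 (0.20 ± 0.04) and Cdk4 (0.24 ± 0.04) rose only as deposited and under part of the scalings.

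**Figure D4:**
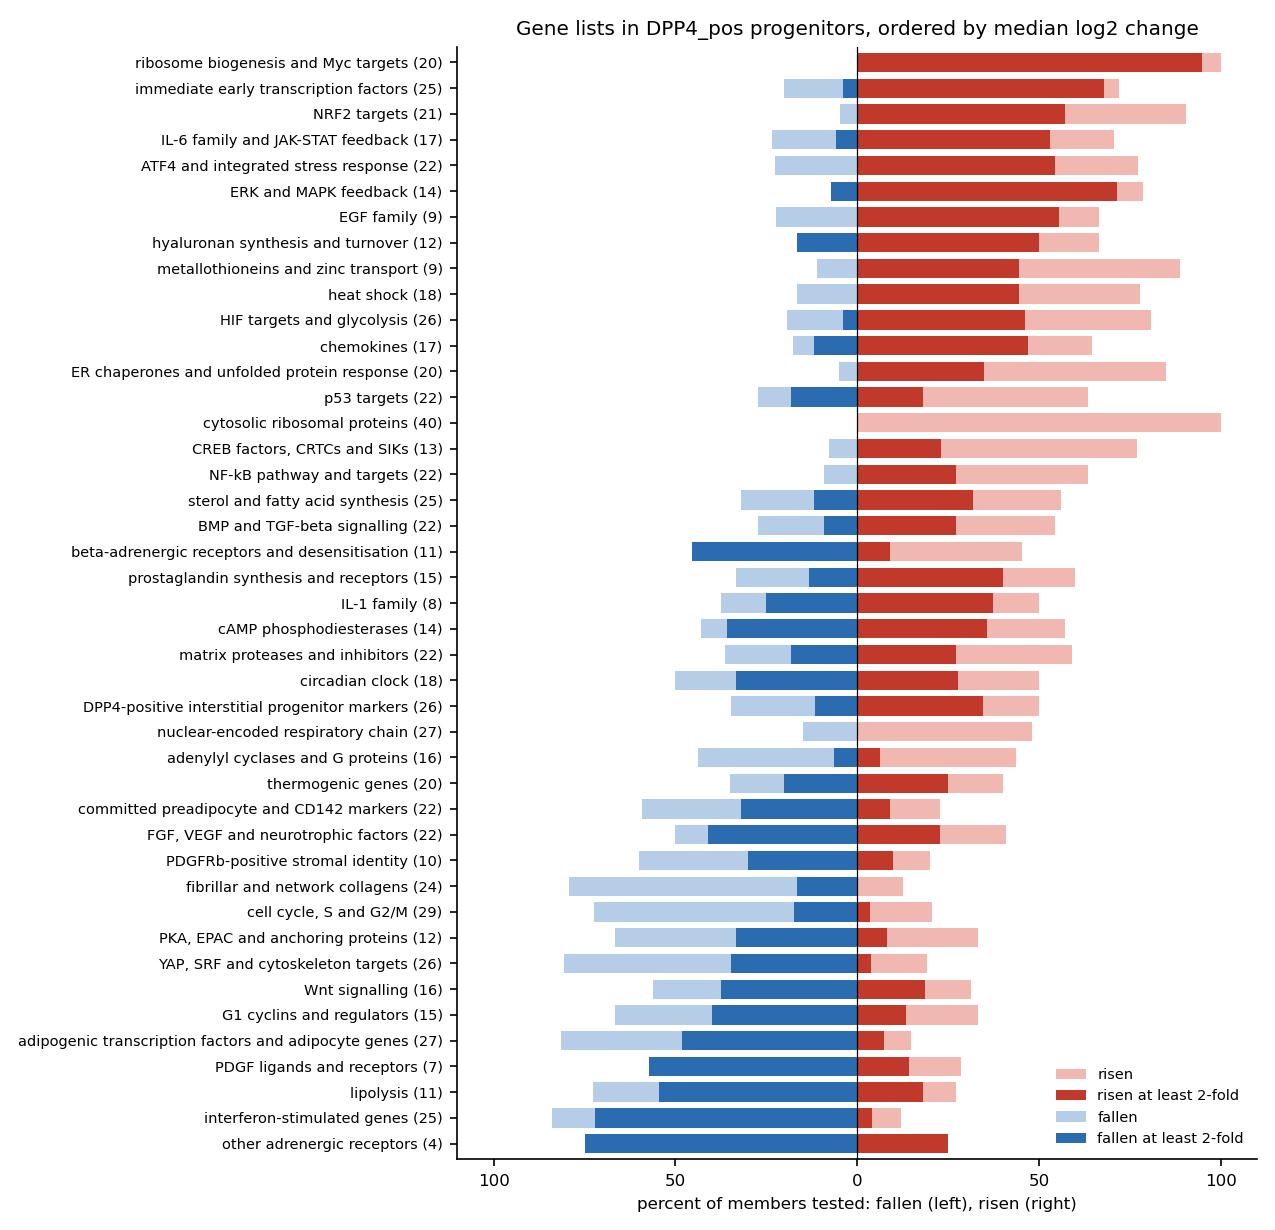
Share of tested members that rose (right) or fell (left) with isoproterenol in DPP4_pos progenitors for each pathway or identity list, with the number tested in parentheses and those changed at least 2-fold in the darker colour. Ribosome biogenesis, at the top, had 19 of 20 members risen at least 2-fold, and interferon-stimulated genes, near the bottom, had 18 of 25 fallen at least 2-fold.

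The largest changes over all genes are described next, including some list members named above. Among called genes without overlap and with a mean of at least 50 normalized counts, the 15 largest rises were all at least 169-fold on the log2(normalized count + 1) scale, 1 of them in a gene with a provisional name that is not described. Sptssb, a small subunit of serine palmitoyltransferase, which starts sphingolipid synthesis, was at 0, 0.743, 2.66 and 0 normalized counts with vehicle and 3369.6, 3575, 3630 and 3369 with isoproterenol. It had 4 reads over all vehicle libraries and 9328 over the treated ones, a ratio of 4154 (95% counting interval 1622 to 15248). Ren1, which encodes renin, an enzyme whose release and transcription in the kidney respond to cAMP, had 5 and 4088 reads (ratio 1456, 624 to 4487). Ramp3, a partner of the adrenomedullin receptor, had 9 and 4506 (ratio 892, 469 to 1952). Reads over the 4 vehicle libraries ran from 0 for Tox3 to 405 for Slc7a11 within these 15, which were chosen for a large rise without overlap. Tox3, a nuclear HMG-box protein, had no read with vehicle and 798 with isoproterenol, at least 474-fold higher against a floor of 3 counts over the group. Nppc, C-type natriuretic peptide, went from 3 to 775 reads (ratio 460.1, 157 to 2236), and the endothelial adhesion gene Sele from 3 to 773 (ratio 459, 156 to 2230.3). Cxcl3 went from 1 to 549 reads (ratio 978, 175 to 38692) and Kank4, a cytoskeletal adaptor, from 6 to 1154 (ratio 343, 157 to 935). The keratin gene Krt20 rose from 6.46 to 2019 normalized counts (8.14 ± 0.28). Intervals and floors cover counting error only.

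The 15 largest falls were all at least 22.9-fold. Wdr86, a WD-repeat gene, was at 568, 650.2, 669.5 and 591 with vehicle and 12.4, 20.9, 7.31 and 5.64 with isoproterenol (55-fold lower). Tlr1, a receptor for bacterial lipopeptides, went from 572 reads over the vehicle libraries to 5 (ratio 0.0156, 0.00504 to 0.0365), and the coiled-coil gene Ccdc68 from 679 to 9 (ratio 0.0236, 0.0107 to 0.0451). Gucy1a1, a subunit of the nitric oxide receptor guanylyl cyclase (−4.91 ± 0.20), the organic anion carrier Slco2b1 (−5.03 ± 0.30), the fatty acid transporter family member Slc27a6 (−4.79 ± 0.38), the Wnt enhancer Rspo2 (−4.57 ± 0.14) and the interferon-stimulated Ifit2 (−4.69 ± 0.27, −4.59 without vehicle replicate 1) fell too. The others were Zmynd15 (−4.76 ± 0.42), Aff3 (−4.64 ± 0.26), Calhm5 (−4.62 ± 0.18) and Plscr2 (−4.52 ± 0.17), together with Adrb3, Ctgf and Gpr176. All treated libraries lay below the lowest vehicle library for each of these, as their choice required.

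Genes already abundant with vehicle, at 1000 normalized counts or more, were taken separately because their changes make up more of the RNA. Beside Il1rl1, Il33, Gfpt2, Srxn1, Uap1, Errfi1, Hsph1, Ugdh and Txnrd1, the 10 largest rises held Acsl4, an acyl-CoA synthetase for arachidonate, at 1661, 1503, 1605 and 1443 and 30698, 28676, 29838 and 30464 (19.3-fold). The largest falls, beside Ctgf, Cemip, Txnip and Adm, were in the orphan receptor Gpr176, at 2059.5, 1891, 1991 and 1995 and 101, 67.9, 89.1 and 86.4 (23-fold), the transcription cofactor Lbh (16.4-fold), the guanine nucleotide exchange factors Dock10 (15.3-fold) and Rin2 (14.5-fold) and the alcohol dehydrogenase Adh1 (13.9-fold). Vehicle and treated libraries did not overlap for any of these genes. Ifit3, whose reads a close copy could share, was the remaining one and is not described.

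The response was then set against that of DPP4_neg progenitors, which come from other libraries. The difference between the responses passed the test in 8765 genes (62.6%), more positive in DPP4_pos cells in 4423 (31.6%) and more negative in 4342 (31.0%). Of the genes called in both populations, 7329 changed in the same direction and 892 in opposite directions. Crem rose in both populations, by 5.42 ± 0.06 in DPP4_pos and 4.62 ± 0.06 in DPP4_neg cells, with a difference of 0.80 ± 0.08 (adjusted p = 3.48e-08), and so did Nr4a1, by 6.89 ± 0.11 and 4.47 ± 0.11 (difference 2.42 ± 0.15). Gfpt2 (0.06 ± 0.06, adjusted p = 0.351) and Il1rl1 (0.18 ± 0.26, adjusted p = 0.569) did not pass for a difference. On the log2 scale Il33 rose more in DPP4_neg cells (−0.64 ± 0.08). Its mean went from 34.4 to 1897 normalized counts there and from 1893 to 64967 in DPP4_pos cells. Il6 rose more in DPP4_pos cells, by 5.65 ± 0.09 against 2.13 ± 0.09 (difference 3.52 ± 0.13, adjusted p = 3.17e-15), and so did Ptgs2, by 5.82 ± 0.13 against 2.03 ± 0.13, and Lif, by 4.44 ± 0.06 against 1.45 ± 0.06. Ccl2 rose in DPP4_pos and fell in DPP4_neg cells (−0.68 ± 0.10, difference 1.52 ± 0.14). Pdgfra and Pdgfrb fell less in DPP4_neg cells (−0.33 ± 0.04 and −0.33 ± 0.05), with differences of −1.32 ± 0.05 and −1.52 ± 0.07.

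Lists are set here against all genes tested, of which 62.6% differed between the populations. As deposited, the difference was more positive in DPP4_pos cells for 31.6% of all genes and more negative for 31.0%. That most members of a list differed is thus not particular to it. The difference was more positive in DPP4_pos cells for all 20 ribosome biogenesis genes, whose median change was 1.80 there and 0.43 in DPP4_neg cells. It was more positive for 18 of 22 integrated stress response genes (medians 1.17 and −0.22), 19 of 26 HIF and glycolysis genes (0.88 and 0.13), 15 of 18 heat shock genes (0.93 and 0.06) and 13 of 17 IL-6 family genes (1.35 and 0.32). It was more negative for 24 of 25 interferon-stimulated genes, with a median of −1.60 in DPP4_pos and 0.45 in DPP4_neg cells. Without vehicle replicate 1, an alternative chosen after its marker sums were seen, 20 of the 25 were more negative and the DPP4_pos median was −1.39. Collagen genes were more negative in 16 of 24 (−0.38 and −0.07), and cell cycle genes in 17 of 29 (−0.39 and −0.07). For YAP and SRF targets the difference was more positive in 17 of 26, where their median was lower (−0.62 and −1.07). The difference was more positive for 7 and more negative for 5 of 17 chemokine genes (0.84 and 0.88), 7 and 6 of 15 prostaglandin genes (0.29 and 0.53), and 0 and 5 of 8 IL-1 family genes (0.28 and 1.11).

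Among genes with a mean of at least 50 normalized counts over all libraries, the 10 differences furthest to the positive and the 10 furthest to the negative side held 7 genes that changed in opposite directions. Sox11, a developmental transcription factor, was at 26, 30.5, 29.2 and 22 in DPP4_pos vehicle and 1757, 1843, 1600.2 and 1719 in DPP4_pos isoproterenol libraries, a 62.4-fold rise, while its change in DPP4_neg cells was −0.07 ± 0.09 (difference 6.04 ± 0.13, adjusted p = 1.23e-18). Lmcd1, with an element in its promoter stretch, was at 18.8, 21.6, 16.8 and 22 and 108, 122, 109.6 and 103 in DPP4_pos cells, a rise, and fell in DPP4_neg cells (−3.23 ± 0.12). Ret, the receptor for GDNF, rose in DPP4_pos (3.02 ± 0.08) and fell in DPP4_neg cells (−1.18 ± 0.08), and so did Prr5l (2.10 ± 0.16 and −1.82 ± 0.16). Cxcl2, Kank4, Slc7a11, Slc6a12, Sptssb and Sele rose in both and more in DPP4_pos cells. On the other side Pde11a (−2.44 ± 0.21 and 1.46 ± 0.21), Ppl (−2.14 ± 0.28 and 1.37 ± 0.28), Tgfbi (−1.40 ± 0.12 and 2.04 ± 0.12) and Ifi44 (−2.12 ± 0.48 and 1.32 ± 0.48) fell in DPP4_pos and rose in DPP4_neg cells, and without vehicle replicate 1 the fall of Ifi44 was −1.70 and its difference −3.02. Cited1 rose in both and more in DPP4_neg cells, the gelsolin relative Scin likewise, though in DPP4_pos cells its groups overlapped (0.43 ± 0.15) and the call was lost under 3 scalings, and Fam198a rose in DPP4_neg cells (2.96 ± 0.20) and did not pass in DPP4_pos cells (−0.38 ± 0.20, adjusted p = 0.0806).

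**Figure D5:**
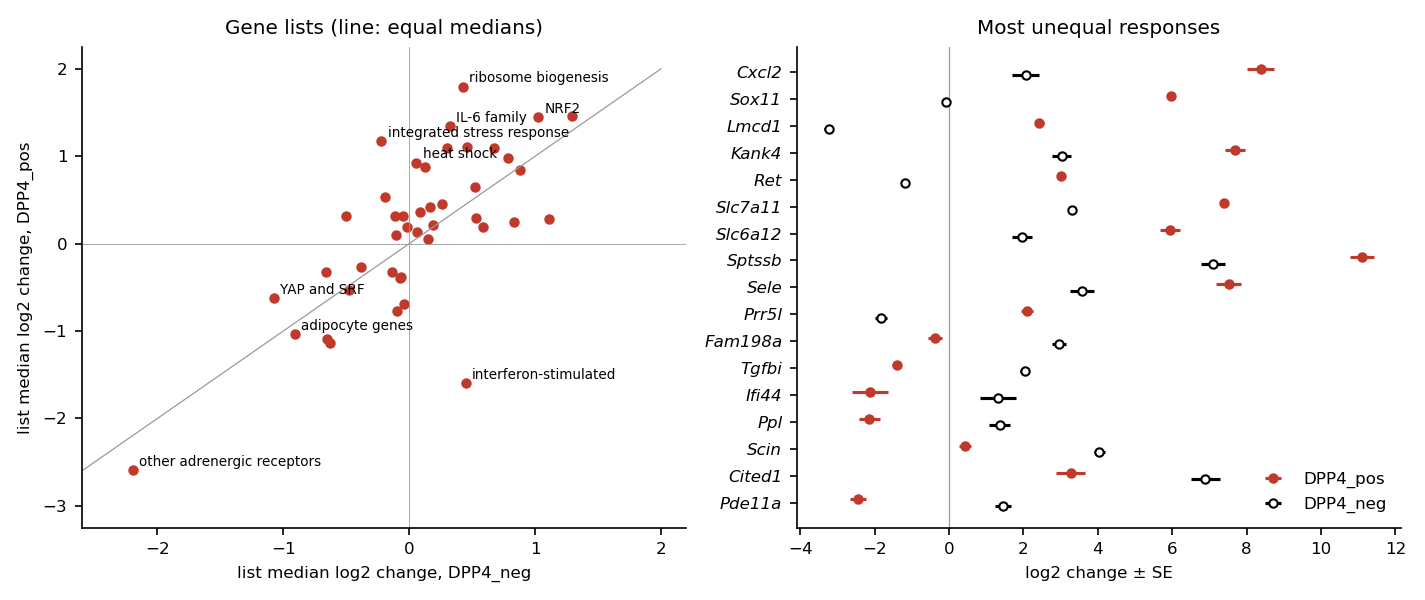
Left, median log2 change of each pathway or identity list in DPP4_pos against DPP4_neg cells, with a line of equal medians. Right, log2 change ± SE in both populations for the genes named by the largest differences, with Cxcl2, Sox11 and Lmcd1 at the top and Cited1 and Pde11a at the bottom.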

How the data were processed

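RNA was measured in 16 libraries, 8 of them DPP4_pos. The authors deposited 1 table of normalized counts, and, per the submitters' processing notes, used featureCounts 1.4.6 and DESeq2 1.6.3 besides HISAT2 2.0.1 and Trim Galore 0.4.1, with build GRCm38. The deposited signal values are read counts divided by a size factor per library: 100% of values above 0 came out as whole reads within 0.001. The kit's strand setting is not given in the sources used here, so overlapping genes cannot be told apart. Values were tested with limma 3.58.1 (trend, R 4.3.3) on log2(normalized count + 1) over all 16 libraries with 4 group means, and Benjamini-Hochberg adjusted over 14005 genes. Fold changes are on that scale and understate those of low genes. On the recovered reads edgeR 4.0.16 (quasi-likelihood) called 11581 genes, 5266 risen and 6315 fallen, and DESeq2 1.42.0 called 11354. Replicate numbers were checked for pairing. The tests were tried on simulated data. Named genes were those of the gene lists with the largest changes, fixed key genes, and the 15 largest changes in each direction, the 10 largest differences and the 10 largest among abundant genes. Members and lists were chosen with earlier results of these data known. Saa3, Ly6a, Dcn, Pecam1, Cdh5 and the genes named only for their gains or as shared markers lie outside that rule and were chosen after their values were seen. Some genes are not reported here.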

Additional observations from a re-analysis of the deposited data

Results flagged for a closer look

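In groups of 4 libraries, a single library set far apart from the other 3 was looked for in 142 groups of values, and 7 were found. Chance gives about 1 in 20, so this is about the number that chance alone would give. Vehicle replicate 1 held 3 of them, at 2682 normalized counts for Il1rl1, 1378 for the sum of macrophage and leukocyte markers and 9432 for the sum of mural markers, each above the other vehicle libraries. Vehicle replicate 4 was high for Crem (135). Among isoproterenol libraries, replicate 1 was high for Pdgfrb (2347), replicate 3 for Fos (583) and replicate 2 for Rspo2 (8.71). None of these libraries crossed into the other treatment group for the 5 single genes.

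For 17 genes named for the largest differences between the responses of DPP4_pos and DPP4_neg cells, the differences are listed here. The genes were chosen among those that passed the test of the difference, so their passing adds nothing. The log2 difference was 6.31 for Cxcl2, 6.04 for Sox11, 5.66 for Lmcd1, 4.66 for Kank4, 4.20 for Ret, 4.09 for Slc7a11, 3.99 for Slc6a12, 3.99 for Sptssb, 3.95 for Sele and 3.92 for Prr5l. It was −3.91 for Pde11a, −3.62 for Cited1, −3.61 for Scin, −3.51 for Ppl, −3.44 for Ifi44, −3.44 for Tgfbi and −3.34 for Fam198a.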

How the results depend on the processing

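The median log2 change of all genes, −0.05 as deposited, was −0.325 with library totals, −0.0977 with TMM, −0.2424 with the upper quartile, −0.3516 with library totals less 20 genes and −0.0309 with quantile scaling. Counts of called genes stayed within 1.5 times under every alternative run (called genes 10253 to 12782, risen 3693 to 5856, fallen 5122 to 8016). Leaving out 1 library at a time gave 11298 to 11442 called, 5389 to 5452 risen, 5908 to 5990 fallen, 1598 to 1635 risen and 2662 to 2720 fallen at least 2-fold, and 8420 to 8699 differences of response. Of 318 named responses, 292 kept their direction and side of the threshold under every alternative, and 41 of 46 named differences did. With quantile scaling, the sign turned for Il18 (0.05), Icam1 (−0.122), Itgb1 (−0.334), Amotl1 (−0.096), Chac1 (0.154), Top2a (−0.187), Ccnd3 (−0.047) and Cdk4 (−0.087), and the difference of responses of Vegfa turned to −0.3. As deposited that Vegfa difference was 0.10 ± 0.06 and did not pass the limma test (adjusted p = 0.182). With library totals less 20 genes, the sign turned for Sfrp4 (−0.012), Icam1 (−0.184), Itgb1 (−0.223), Sparc (−0.092), Amotl1 (−0.075), Srf (−0.157), Top2a (−0.156), Ccnb1 (−0.142), Aurka (−0.085), Tyms (−0.111), Ccnd3 (−0.103) and Cdk4 (−0.062), and the difference of responses of Vegfa turned to −0.172. With library total scaling, the sign turned for Icam1 (−0.158), Itgb1 (−0.196), Sparc (−0.065), Amotl1 (−0.048), Srf (−0.131), Top2a (−0.129), Ccnb1 (−0.115), Aurka (−0.058), Tyms (−0.084), Ccnd3 (−0.076) and Cdk4 (−0.035), and the difference of responses of Vegfa turned to −0.164. With upper quartile scaling, the sign turned for Icam1 (−0.074), Itgb1 (−0.112), Srf (−0.047), Top2a (−0.045), Ccnb1 (−0.032) and Tyms (−0.001). The cause of these turns was not tested beyond the scaling itself.

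Replicate numbers did not pair the libraries: the correlation of same-numbered vehicle and isoproterenol libraries' deviations ran from −0.031 to 0.076 in DPP4_pos cells, and not every library correlated best with its own number. With the replicate block 11561 genes were called, 5508 risen and 6053 fallen. Depth, lowest in an isoproterenol library at 9823799 reads, limits genes with few reads, for which read ratios are given.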

Other observations

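Clock genes moved both ways in DPP4_pos progenitors. Of 18, 9 rose and 9 fell, where 39.4% of all genes rose and 43.3% fell (7 and 9 at every scaling, 5 up and 6 down at least 2-fold, median 0.19). Arntl, the BMAL1 gene, was at 262, 276, 259.5 and 268 normalized counts with vehicle and 2029, 1986, 2174 and 1975 with isoproterenol (2.93 ± 0.04), and Bhlhe40 (2.23 ± 0.05) and Nfil3 (2.10 ± 0.04) rose, whereas Dbp (−3.13 ± 0.10) and Per3 (−3.06 ± 0.07) fell. Each of these 5 genes changed without overlap between the groups. For sterol and fatty acid synthesis 14 of 25 rose and 8 fell (11 and 8 at every scaling, 8 up and 3 down at least 2-fold, median 0.32). Pmvk, an enzyme of the mevalonate pathway, rose (1.48 ± 0.06), with Insig1 (1.34 ± 0.03) and Cyp51 (1.20 ± 0.04), while Dhcr7 fell (−1.47 ± 0.08). Targets of p53 rose in 14 of 22 and fell in 6 (12 and 6 at every scaling, 4 up and 4 down at least 2-fold, median 0.53), with the kinase gene Plk3 up (2.27 ± 0.08) and the death receptor Fas (−2.28 ± 0.10), Sesn1 (−1.83 ± 0.06) and Bbc3 (−1.61 ± 0.10) down.

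Kdr, the VEGF receptor counted here among endothelial markers, rose from 39.9 to 684 normalized counts in DPP4_pos cells (4.08 ± 0.13). Of 8 endothelial markers tested 3 rose, 2 at least 2-fold, and 3 fell, 2 at least 2-fold. Pecam1 (34.7 and 50.6, adjusted p = 0.156) and Cdh5 (37 and 57.5, adjusted p = 0.162) did not pass the test.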
